A study of Mus musculus with 9 samples.

Results

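Interferon-stimulated genes are the genes that cells switch on when interferon reaches its receptors. A set of 47 of them, named by symbol, was followed in mouse monocytes. Each symbol was matched to 1 Ensembl gene ID of a table with 46517 rows, and all 47 had enough counts to be tested among 14059 tested genes. The libraries came from primary wild type C57BL/6 monocytes kept in vitro, with 3 RNA libraries for each of 3 subsets. These were patrolling monocytes (pMo), intermediate monocytes (intMo) and conventional monocytes (cMo), with libraries numbered 0, 1 and 2 in each. The title of the series describes patrolling cells derived from bone marrow in cultures with OP9-DLL1 cells, a stromal line carrying the Notch ligand Delta-like 1. In the design text conventional monocytes are listed again in the place of the patrolling subset, so the subsets were taken from the sample labels. The sources used here do not give how the cells were sorted or whether libraries of a subset came from separate cultures or mice, so p-values measure only the spread between these libraries.

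Type I interferons bind a receptor pair whose kinases phosphorylate STAT2 and other factors of its family, and these join IRF9 on a promoter element called the interferon-stimulated response element. Interferon gamma uses another receptor pair and acts mainly at gamma-activated sites. Many of the genes induced have antiviral roles: their proteins bind or cut viral RNA, sense foreign nucleic acids, attach the modifier ISG15 or coat microbe-containing vacuoles, and others feed back on the pathway. In blood, patrolling monocytes survey the inner wall of vessels, and conventional monocytes enter inflamed tissue.

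Each library held 18455008 to 29985563 estimated counts in all, and levels below are CPM, counts scaled to a common library total by TMM. Markers matched the labels of pMo and cMo, since all 8 patrolling monocyte genes rose and all 5 conventional monocyte genes fell in pMo against cMo (edgeR quasi-likelihood test, Benjamini-Hochberg adjusted p up to 0.0224). In intMo against cMo, 6 of the 8 patrolling genes rose and 1 fell, and all 5 conventional genes fell. In pMo against intMo, 7 of the 8 patrolling genes rose and 0 of the 5 conventional genes were called. Libraries numbered 0 stood apart from the others. Across tested genes, log2 CPM of libraries 1 and 2 of a subset correlated at 0.986 to 0.99, and those with library 0 at 0.951 to 0.975, across genes that are not independent replicates. For that reason each comparison of the set of interferon-stimulated genes followed here is also given for libraries 1 and 2 alone. Counts of most marker lists and of the upstream pathway lists are given only with all libraries together. Values of single genes are listed in the order of libraries 0, 1 and 2.

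The promoters of 37 of the 47 genes were in a RefSeq table for GRCm38.p6, as 45 windows that run from 250 bases before to 50 bases after a transcription start. Those of Usp18, Oas2, Mx1, Mx2, Dhx58, Zbp1, Ifi204, Parp9, Parp14 and Rtp4 were not used here. The core of the response element, GAAANNGAAA (TTTCNNTTTC when read on the other strand), was found on either strand for 19 of the 37 genes (51.4%), against 1079 of 27025 genes in the whole table (3.99%). The core of the gamma-activated site, TTCNNNGAA, which has the same form on both strands, was found for 10 of 37 genes (27.0%), against 9.55% of all genes. The 2 cores overlapped in 1 promoter, that of Bst2. A match is a description of the letters and not of a site in use, and a promoter without a match may hold variants of the element. The following 5 promoters show the patterns, with matches to either core in capitals. They are those of Isg15 (chr4:156200769-156201068, minus strand), Ifit3 (chr19:34583279-34583578, plus strand), Gbp2 (chr3:142620413-142620712, plus strand), Gbp5 (chr3:142496684-142496983, plus strand) and Samhd1 (chr2:157135047-157135346, minus strand), each written along the strand of its gene. The promoter of Isg15 held 3 overlapping response element cores and that of Ifit3 held 2 apart from each other. The promoter of Gbp2 held 1. The promoter of Gbp5 held 1 response element core and 2 gamma-activated site cores, whereas that of Samhd1 held a gamma-activated site core alone.
Isg15: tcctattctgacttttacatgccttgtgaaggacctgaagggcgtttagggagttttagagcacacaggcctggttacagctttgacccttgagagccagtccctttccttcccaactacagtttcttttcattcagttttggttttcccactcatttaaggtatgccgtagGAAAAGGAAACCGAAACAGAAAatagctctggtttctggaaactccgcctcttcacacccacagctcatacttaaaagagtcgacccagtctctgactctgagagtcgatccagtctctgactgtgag
Ifit3: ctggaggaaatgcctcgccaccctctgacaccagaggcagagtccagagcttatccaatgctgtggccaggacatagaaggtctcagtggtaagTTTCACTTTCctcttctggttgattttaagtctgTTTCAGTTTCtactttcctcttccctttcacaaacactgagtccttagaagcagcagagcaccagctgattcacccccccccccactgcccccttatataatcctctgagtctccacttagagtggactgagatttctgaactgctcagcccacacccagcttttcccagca
Gbp2: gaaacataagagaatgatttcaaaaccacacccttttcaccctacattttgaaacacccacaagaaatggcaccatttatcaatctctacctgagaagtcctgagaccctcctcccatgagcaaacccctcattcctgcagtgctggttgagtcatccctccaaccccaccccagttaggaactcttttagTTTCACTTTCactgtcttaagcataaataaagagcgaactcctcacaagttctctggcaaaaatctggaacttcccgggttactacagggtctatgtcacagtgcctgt
Gbp5: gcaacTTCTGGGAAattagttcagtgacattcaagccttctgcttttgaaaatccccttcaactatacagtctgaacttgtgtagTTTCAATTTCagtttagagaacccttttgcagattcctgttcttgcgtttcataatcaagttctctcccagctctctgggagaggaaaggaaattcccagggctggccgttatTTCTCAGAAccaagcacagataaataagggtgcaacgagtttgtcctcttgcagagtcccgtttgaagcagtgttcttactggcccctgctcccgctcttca
Samhd1: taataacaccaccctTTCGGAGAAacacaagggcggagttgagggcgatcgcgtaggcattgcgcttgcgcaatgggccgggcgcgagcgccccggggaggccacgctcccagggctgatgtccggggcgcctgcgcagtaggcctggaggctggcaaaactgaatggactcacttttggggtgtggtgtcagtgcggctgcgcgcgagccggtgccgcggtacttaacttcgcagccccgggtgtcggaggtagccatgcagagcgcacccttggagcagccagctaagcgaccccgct

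Patrolling and conventional monocytes were compared first. Of the 47 genes, 12 rose in pMo, 0 fell and 35 were not called. The genes that rose were Isg15, Samhd1, Ifih1, Zbp1, Parp9, Parp14, Dtx3l, Gbp2, Gbp5, Igtp, Trafd1 and Epsti1. They span most roles, from the ISG15 modifier and a nucleotide hydrolase to sensors, ADP-ribosylating enzymes and GTPases, and none was of the IFIT or OAS groups. Rising genes made up 25.5% of the 47, against 17.2% of all tested genes, and no member fell, against 15.9% of all tested genes (edgeR quasi-likelihood test at 0.05 after Benjamini-Hochberg adjustment). The log2 fold change was above 0 for 45 of 47, with a median of 1.10 and a range of -0.22 to 2.52, beside a median of 0.03 over all tested genes. All 3 pMo libraries lay above all 3 cMo libraries for 14 of 47 genes (29.8%), a share near the 26.0% of all tested genes. Libraries are bulk RNA, so fewer cells of a type and less RNA per cell cannot be told apart in these values.

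With libraries 1 and 2 alone, 43 of the 47 genes rose in pMo against cMo and 0 fell, against 19.7% of all tested genes that rose. The median log2 fold change was then 1.01, close to that of all 9 libraries. Within libraries numbered 0, the level in pMo was above that in cMo for 46 of 47 genes, with a median difference of 1.47 on the log2 scale, and for libraries numbered 1 and 2 it was above for 45 of 47 in each. The count of 12 called genes dropped to 4 without pMo library 1, to 4 without pMo library 2 and to 7 without cMo library 1.

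Intermediate monocytes were set against conventional monocytes in the same way. Of the 47 genes, 14 rose in intMo, 0 fell and 33 were not called. They were Bst2, Ifih1, Stat2, Parp9, Parp14, Dtx3l, Gbp2, Gbp3, Gbp5, Gbp7, Igtp, Ifi44, Trafd1 and Epsti1, so that 5 of 7 interferon-inducible GTPases and 3 of 4 genes of the PARP group were among them. Rising genes made up 29.8% of the 47, against 14.0% of all tested genes, and 0 fell, against 10.4%. The log2 fold change was above 0 for all 47, with a median of 1.24 and a range of 0.14 to 3.80, beside a median of -0.01 over all tested genes. All 3 intMo libraries lay above all 3 cMo libraries for 24 of 47 genes (51.1%), against 21.2% of all tested genes.

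With libraries 1 and 2 alone, 46 of 47 genes rose in intMo against cMo, against 15.8% of all tested genes, and Cmpk2, a mitochondrial nucleotide kinase, was the one not called (log2 0.23, edgeR adjusted p = 0.144). The median log2 fold change was 1.14. Within libraries numbered 0, the level in intMo was above that in cMo for 45 of 47 genes, with a median difference of 1.73, and within those numbered 1 or 2 it was above for all 47. The count of 14 called genes dropped to 5 without intMo library 1, to 4 without intMo library 2 and to 9 without pMo library 2. It was 7 without cMo library 0, without cMo library 1 or without pMo library 1.

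Markers of other cells moved with the comparisons against cMo. The 10 genes of the OP9-DLL1 stroma summed to 437, 282 and 222 CPM in pMo, 656, 196 and 245 CPM in intMo and 18.8, 8.89 and 9.04 CPM in cMo, and all 8 of those tested rose in pMo and in intMo against cMo (edgeR adjusted p up to 0.00631). Dcn was at 0 in all libraries and Lum at 0 in all but 2, with 1 count each. The 8 plasmacytoid dendritic cell genes summed to 177, 156 and 155 CPM in pMo, 221, 198 and 204 CPM in intMo and 94.2, 112 and 101 CPM in cMo, and 3 of 7 tested rose and 1 fell in pMo against cMo, while 5 rose in intMo against cMo. Of these, Siglech had 24, 15 and 10 counts in pMo, 663, 855 and 1004 in intMo and 93, 130 and 127 in cMo, and Klk1 was at 0 in pMo. The 5 B cell markers summed to 36.7, 22.6 and 22.6 CPM in pMo, 46.3, 26.9 and 25.4 CPM in intMo and 22.1, 17.1 and 19.5 CPM in cMo, and of 4 tested 1 rose in pMo and 2 rose in intMo against cMo. Of the 10 immediate early and heat shock genes, which respond to handling of cells, 6 rose in pMo and 5 in intMo against cMo, with median log2 fold changes of 1.67 and 1.69. Of the 10 granulocyte and progenitor genes, 5 fell in pMo and 4 in intMo against cMo, and 0 rose. The fit of libraries 1 and 2 alone gave 4 of these that rose and 5 that fell in pMo, and 5 and 5 in intMo. Median log2 fold changes of the immediate early and heat shock genes were 0.81 in pMo and 0.73 in intMo in that fit. Over all tested genes and 9 libraries, 17.2% rose and 15.9% fell in pMo against cMo, and 14.0% rose and 10.4% fell in intMo against cMo. In pMo against intMo, 1 of the 7 tested plasmacytoid dendritic cell genes rose and 4 fell, against 3.29% and 1.69% of all tested genes. No tested gene of the stromal, B cell, granulocyte and progenitor or immediate early and heat shock lists was called there. The part of these cells and genes in the levels of the 47 genes was not tested.

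**Figure D1:**
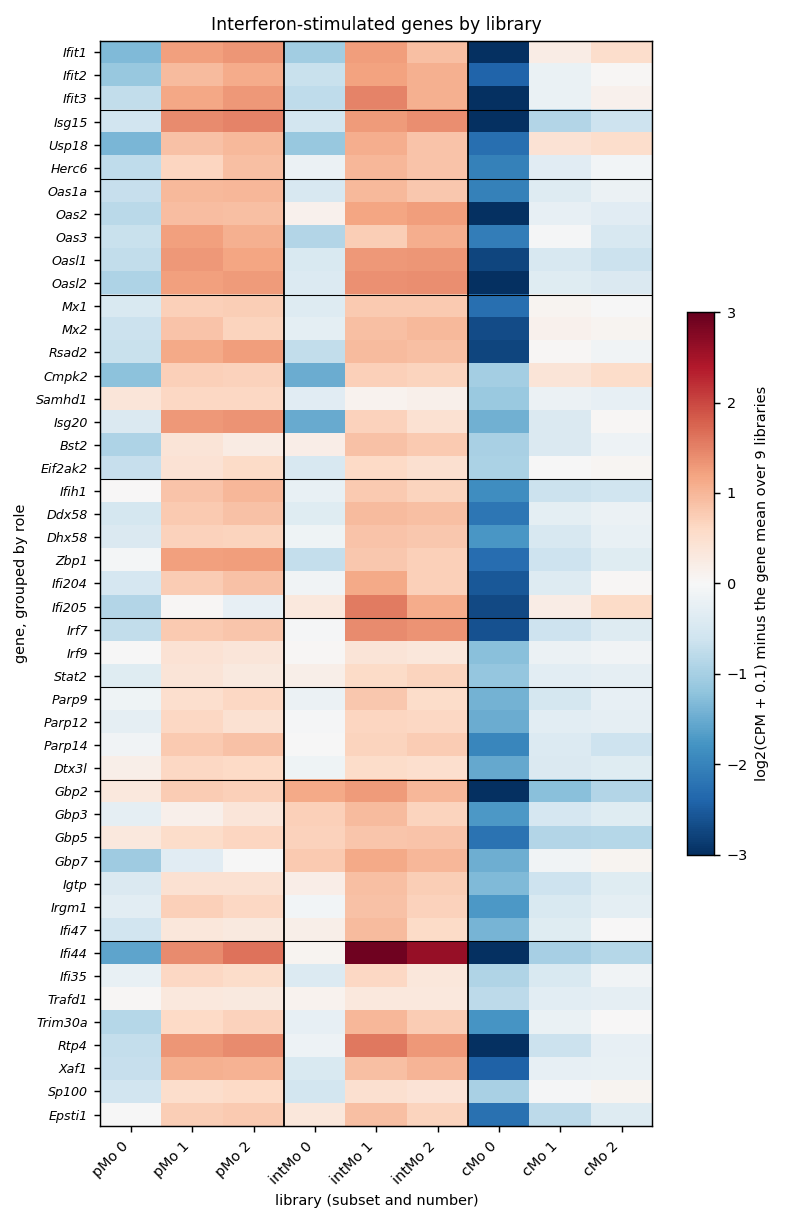
Level of each of the 47 genes (rows, grouped by role) in each of the 9 libraries (columns), as log2(CPM + 0.1) minus the mean of that gene over 9 libraries, drawn between -3 and 3. Library 0 of each subset is the palest or bluest of its 3 columns for nearly all genes, and cMo library 0 is the lowest library for 45 of 47 genes.

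Patrolling monocytes were then set against intermediate ones. No member was called in pMo against intMo, against 3.29% of all tested genes that rose and 1.69% that fell (edgeR). At an unadjusted p under 0.05 (edgeR), 0 members were higher and 1 was lower in pMo, beside 2619 of all 14059 tested genes in either direction. DESeq2 called 1 member that fell. Over all genes edgeR called 463 higher and 238 lower in pMo, and DESeq2 767 higher and 645 lower. The log2 fold change was above 0 for 16 of 47 genes, with a median of -0.11 and a range of -1.40 to 0.79, beside a median of -0.02 over all tested genes. This median took the other sign without pMo library 0 (0.22), without intMo library 1 (0.11) and without intMo library 2 (0.04). The count became 3, all lower in pMo, without cMo library 0. The mean over libraries was highest in intMo for 31 genes and in pMo for 16, and it was lowest in cMo for 45 genes.

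Libraries of the same number in pMo and intMo correlated in their deviations from the subset means, at 0.588, 0.3 and 0.274 for numbers 0, 1 and 2. Libraries 1 and 2 also correlated across numbers (0.403 for intMo 1 with pMo 2 and 0.279 for intMo 2 with pMo 1), so the numbers separated library 0 from the others but not 1 from 2. With the number as a block in the fit of all 9 libraries, 1 member was called in pMo against intMo, Gbp7, which fell (edgeR adjusted p = 0.0149). Over all genes that fit called 507 higher and 329 lower in pMo. A block with these 2 subsets alone was added after seeing the data. In that fit 3 members rose in pMo, against 9.13% of all tested genes, and 11 fell, against 9.99%. Those that rose were Samhd1 (log2 0.54, edgeR adjusted p = 0.00595), the nuclease gene Isg20 (log2 0.84, 0.00238) and the Z-form nucleic acid sensor Zbp1 (log2 0.52, 0.00781). In the block of all 9 libraries their adjusted p was 0.0899 for Samhd1, 0.0642 for Isg20 and 0.0761 for Zbp1. Those that fell were Oas2, Bst2, Ifi205, Irf7, Stat2, Gbp2, Gbp3, Gbp7, Igtp, Ifi47 and Ifi44, with log2 fold changes of -1.46 (Gbp7) to -0.38 (Stat2), and 5 of these are GTPases. With libraries 1 and 2 alone and no block, the same 3 genes rose, against 7.43% of all genes. Bst2, Ifi205, Irf7, Gbp3, Gbp7 and Ifi44 fell there, against 9.67% of all genes. All 3 libraries lay lower in pMo than in intMo for Ifi205, Gbp2, Gbp3, Gbp5 and Gbp7, 5 of 47 (10.6%) against 12.9% of all genes, and higher for Samhd1 alone (2.13%), against 14.8%. An F test on both coefficients called 12 of 47 genes (25.5%) as differing between any subsets, against 33.0% of all tested genes. That count was 5 without intMo library 2 or pMo library 1, and 6 without cMo library 1, intMo library 1 or pMo library 2.

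**Figure D2:**
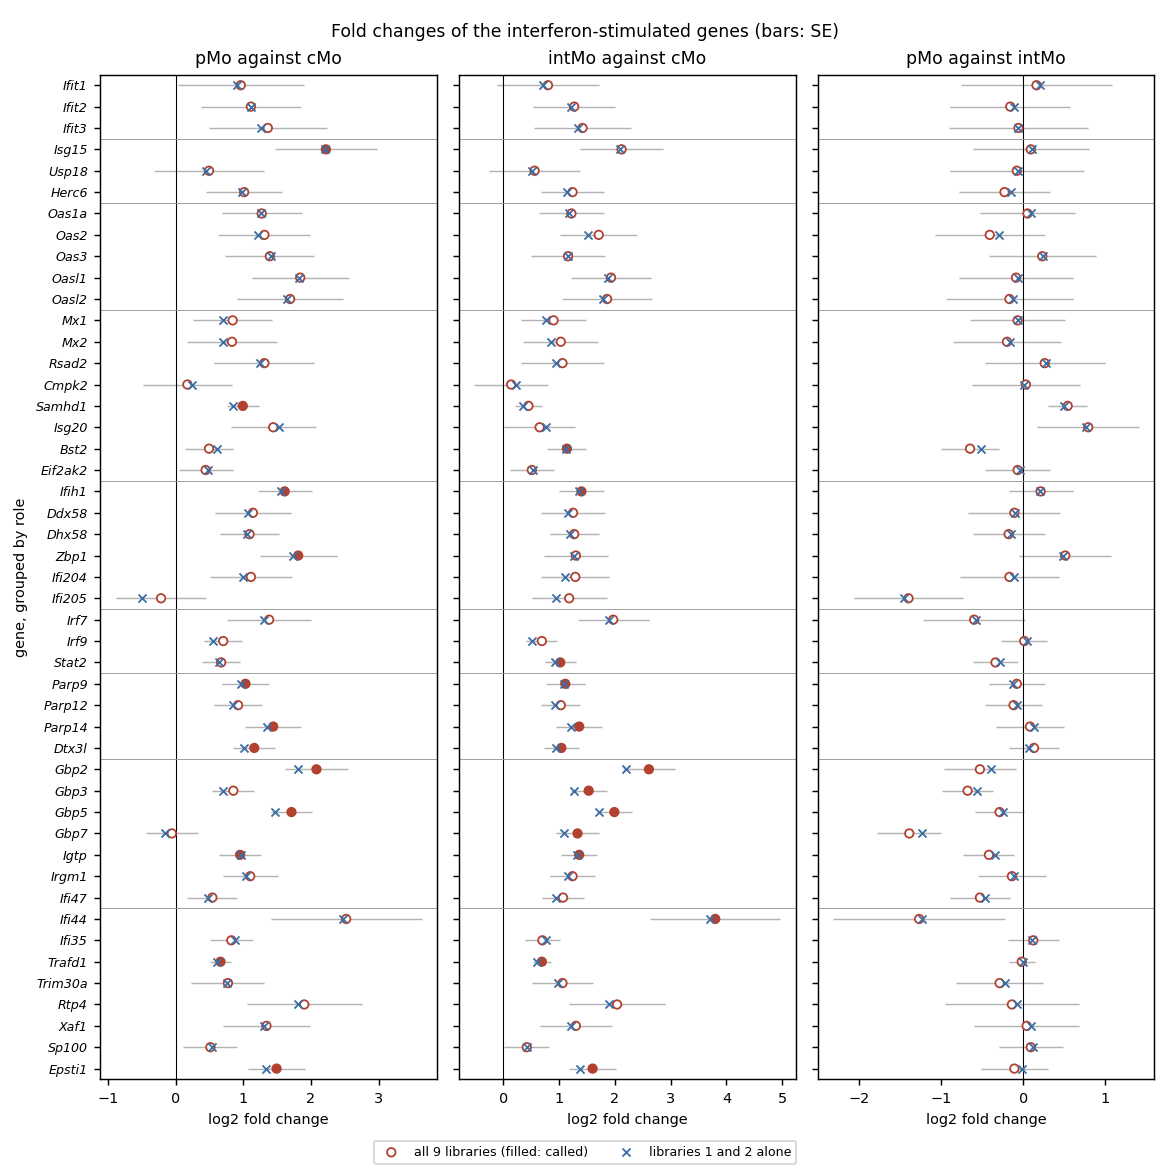
Log2 fold change of each of the 47 genes in pMo against cMo, intMo against cMo and pMo against intMo, from all 9 libraries (circles, filled where called, bars are SE) and from libraries 1 and 2 alone (crosses). Circles and crosses lie close together, nearly all to the right of 0 in the 2 comparisons with cMo and around 0 in pMo against intMo.

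The IFIT proteins bind viral RNA with foreign ends. Ifit3 (ENSMUSG00000074896.3, chromosome 19, 34583531 to 34588731, plus strand, coordinates of GRCm38 here and below), a scaffold of that complex, was at 52.3, 193 and 214 CPM in pMo, 51.1, 245 and 182 CPM in intMo and 7.88, 75.4 and 95.2 CPM in cMo. Library 0 was the lowest of each subset, and the ranges of the subsets overlapped. The fold changes were 1.36 ± 0.87 (pMo against cMo, adjusted p = 0.262) and 1.42 ± 0.87 (intMo against cMo, adjusted p = 0.268) on the log2 scale (SE, 3 libraries per subset, edgeR with Benjamini-Hochberg adjustment, as for all such values below). Ifit1, Ifit2 and Ifit3 were not called in any comparison with subset as the only factor, with log2 fold changes of 0.96 to 1.36 for pMo against cMo and 0.80 to 1.42 for intMo against cMo. With libraries 1 and 2 alone all 3 rose in both (edgeR adjusted p up to 0.00207 and up to 0.00995). Ifit1 and Ifit3 have near copies in the mouse, so the division of reads among them is uncertain.

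Isg15 (ENSMUSG00000035692.6, chromosome 4, 156199424 to 156200818, minus strand) encodes a ubiquitin-like protein that is attached to others, Herc6 a ligase that attaches it in mouse and Usp18 the protease that removes it. Isg15 was at 33.3, 131 and 139 CPM in pMo, 33.9, 119.8 and 130.5 CPM in intMo and 6.12, 27.0 and 32.2 CPM in cMo. Every pMo and intMo library was above every cMo library, although pMo and intMo libraries 0 exceeded the highest cMo library only slightly. Its fold changes were 2.22 ± 0.75 (pMo against cMo, adjusted p = 0.0479) and 2.12 ± 0.74 (intMo against cMo, adjusted p = 0.0677), so it rose in pMo and was not called in intMo. The call was lost on leaving out any library other than pMo library 0 or intMo library 0 (edgeR adjusted p up to 0.127). Usp18 and Herc6 were not called, with log2 fold changes of 0.49 and 1.01 in pMo against cMo, and of 0.56 and 1.24 in intMo against cMo.

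Several proteins of the OAS family make oligoadenylates that activate the nuclease RNase L. Oas1a (ENSMUSG00000052776.10, chromosome 5, 120896256 to 120907521, minus strand) was at 75.4, 242 and 244 CPM in pMo, 87.3, 240.5 and 215 CPM in intMo and 30.0, 94.2 and 109 CPM in cMo. Libraries 1 and 2 of pMo and intMo were above all cMo libraries, and their libraries 0 lay within the cMo range. The fold changes were 1.27 ± 0.59 (pMo against cMo, adjusted p = 0.132) and 1.22 ± 0.59 (intMo against cMo, adjusted p = 0.165). None of the 5 OAS genes was called, with log2 fold changes of 1.27 to 1.84 in pMo against cMo and of 1.16 to 1.93 in intMo against cMo. All 5 rose in both with libraries 1 and 2 alone (edgeR adjusted p up to 0.00067 and up to 0.00267). Oas1a belongs to a cluster of close copies, so its share of reads is uncertain.

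Of the 8 restriction factors and nucleotide enzymes, 1 rose in pMo against cMo and 1 in intMo against cMo. Samhd1 (ENSMUSG00000027639.15, chromosome 2, 157097533 to 157135265, minus strand), which breaks down the building blocks of DNA, had the highest level per kilobase of exon of all 47 genes (121.5 CPM per kilobase over 9 libraries) and was at 1345, 1620 and 1606 CPM in pMo, 835, 1125 and 1173 CPM in intMo and 485, 932 and 882 CPM in cMo. Every pMo library was above every intMo library, while intMo library 0 fell within the range of cMo. Samhd1 rose in pMo against cMo, with a log2 fold change of 0.99 ± 0.24 (adjusted p = 0.0132), and the call held in every alternative tried (adjusted p up to 0.0474 on leaving out 1 library). The other fold changes were 0.45 ± 0.24 (intMo against cMo, adjusted p = 0.211) and 0.54 ± 0.24 (pMo against intMo, adjusted p = 0.269). Bst2 (ENSMUSG00000046718.7, chromosome 8, 71534255 to 71537456, minus strand), the membrane tether of budding viruses, was at 46.7, 116 and 105 CPM in pMo, 102, 164 and 153 CPM in intMo and 44.9, 65.2 and 80.1 CPM in cMo. All intMo libraries lay above all cMo libraries, and pMo overlapped both. Bst2 rose in intMo against cMo, by 1.14 ± 0.35 on the log2 scale (adjusted p = 0.0435), and it was named after its values were seen. The call was lost on leaving out any library other than pMo library 0 or intMo library 0 (adjusted p up to 0.13).

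Eif2ak2 (ENSMUSG00000024079.4, chromosome 17, 78852564 to 78882573, minus strand), the kinase that stops translation on binding double-stranded RNA, was at 59.6, 129.7 and 142 CPM in pMo, 68.6, 145 and 135 CPM in intMo and 49.9, 95.5 and 99.8 CPM in cMo. The ranges of all 3 subsets overlapped. Its fold changes were 0.44 ± 0.40 (pMo against cMo, adjusted p = 0.437) and 0.51 ± 0.40 (intMo against cMo, adjusted p = 0.392), and its range over the 9 libraries, 1.54 on the log2 scale, was among the 3 smallest of the 47 genes. The remaining members were Mx1, Mx2, the radical enzyme gene Rsad2, Cmpk2 and the nuclease gene Isg20, and none was called. Mx2 is annotated as a polymorphic pseudogene. Their log2 fold changes were 0.17 to 1.44 in pMo against cMo and 0.14 to 1.06 in intMo against cMo.

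Among the 6 sensors of nucleic acids, Ifih1 (ENSMUSG00000026896.13, chromosome 2, 62595798 to 62646255, minus strand), a helicase that detects long double-stranded RNA, was at 114, 205 and 227 CPM in pMo, 97.2, 196 and 179 CPM in intMo and 31.2, 72.7 and 74.9 CPM in cMo. Every pMo and intMo library was above every cMo library. It rose in both, with fold changes of 1.61 ± 0.40 (pMo against cMo, adjusted p = 0.0148) and 1.40 ± 0.40 (intMo against cMo, adjusted p = 0.0336). The call in pMo was lost without pMo library 2 (adjusted p = 0.052), and that in intMo without any cMo library, intMo libraries 1 or 2 or pMo library 1 (adjusted p up to 0.0907). Zbp1 (ENSMUSG00000027514.13, chromosome 2, 173206612 to 173218923, minus strand), which senses Z-form nucleic acids and can start necroptosis, was at 92.8, 228 and 232 CPM in pMo, 59.2, 171 and 159.6 CPM in intMo and 19.7, 63.4 and 75.2 CPM in cMo. The pMo libraries were above all cMo libraries, and intMo library 0 was within the cMo range. Zbp1 rose in pMo against cMo by 1.81 ± 0.57 (adjusted p = 0.0387), a call lost on leaving out any library other than pMo library 0 or intMo library 0 (adjusted p up to 0.107), and 1.30 ± 0.57 (intMo against cMo, adjusted p = 0.127) was its other value.

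Ifi204 (ENSMUSG00000073489.5, chromosome 1, 173747293 to 173766943, minus strand), a DNA-binding protein of the PYHIN family, had the highest level per kilobase of these sensors and was at 148, 351 and 386 CPM in pMo, 194, 457 and 345 CPM in intMo and 35.7, 161 and 212 CPM in cMo. Libraries 0 of pMo and intMo fell within the range of cMo. Its fold changes were 1.11 ± 0.61 (pMo against cMo, adjusted p = 0.192) and 1.29 ± 0.61 (intMo against cMo, adjusted p = 0.158). The helicase genes Ddx58 and Dhx58 and the PYHIN gene Ifi205 were not called. Ifi205 was one of 2 members with a negative fold change in pMo against cMo (-0.22 ± 0.67), and it was at 6.49, 12.3 and 10.2 CPM in pMo, 15.0, 35.5 and 26.2 CPM in intMo and 1.76, 14.1 and 17.9 CPM in cMo. The lowest intMo library was above the highest pMo library for Ifi205. The PYHIN genes have close copies, so their counts are uncertain.

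Irf7, Irf9 and Stat2 encode transcription factors of the pathway. Irf7 (ENSMUSG00000025498.13, chromosome 7, 141262706 to 141266481, minus strand), the factor that amplifies the making of interferon alpha, was at 134, 389 and 399 CPM in pMo, 218, 604 and 574 CPM in intMo and 36.7, 146 and 173 CPM in cMo. All intMo libraries were above all cMo libraries, and pMo library 0 was within the range of cMo. The fold changes were 1.38 ± 0.62 (pMo against cMo, adjusted p = 0.123), 1.97 ± 0.64 (intMo against cMo, adjusted p = 0.0507) and -0.60 ± 0.62 (pMo against intMo, adjusted p = 0.699). The gene overlaps Phrf1 on the opposite strand, and the sources used here do not give the strand setting of the counts.

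Stat2 (ENSMUSG00000040033.14, chromosome 10, 128270559 to 128292849, plus strand), a factor of the response to type I interferon, was at 165, 276 and 261 CPM in pMo, 238, 315 and 338 CPM in intMo and 93.9, 171 and 175 CPM in cMo. Every intMo library was above every cMo library, and pMo library 0 lay within the range of cMo. Stat2 rose in intMo against cMo by 1.02 ± 0.28 (adjusted p = 0.0277), and the call was lost without cMo library 0, intMo library 1 or intMo library 2 (adjusted p up to 0.0882). In pMo against cMo the value was 0.67 ± 0.28 (adjusted p = 0.0924). Irf9, the DNA-binding part of the same complex, had log2 fold changes of 0.70 ± 0.28 (pMo against cMo, adjusted p = 0.0814) and 0.69 ± 0.28 (intMo against cMo, adjusted p = 0.102).

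**Figure D3:**
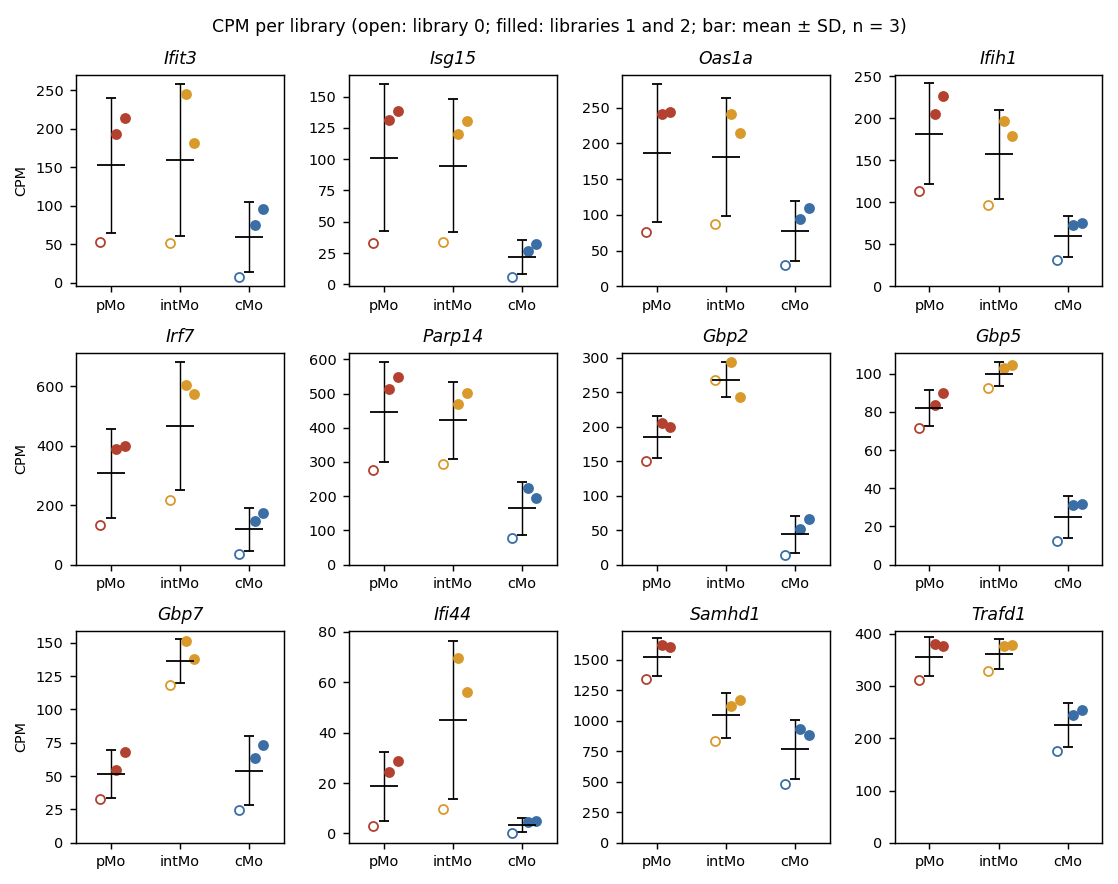
CPM of 12 of the 47 genes in each library (open points are library 0, filled points libraries 1 and 2), with the mean ± SD of 3 libraries per subset. Open points lie below the filled ones of their subset for all 12 genes except Gbp2 in intMo, and cMo holds the lowest point of each gene.

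Of the 4 genes of the PARP group, 3 rose in each of pMo and intMo against cMo. Parp14 (ENSMUSG00000034422.13, chromosome 16, 35832874 to 35871544, minus strand), an ADP-ribosylating enzyme, was at 278, 514 and 548 CPM in pMo, 294, 470 and 503 CPM in intMo and 76.4, 225 and 193 CPM in cMo. Parp9 (ENSMUSG00000022906.14, chromosome 16, 35938470 to 35972605, plus strand) was at 106, 164 and 178 CPM in pMo, 101, 203 and 169 CPM in intMo and 43.0, 79.3 and 97.4 CPM in cMo. Dtx3l (ENSMUSG00000049502.15, chromosome 16, 35926511 to 35939151, minus strand), a ubiquitin ligase that pairs with Parp9, was at 189.8, 259.7 and 253 CPM in pMo, 155, 248 and 241 CPM in intMo and 58.3, 125 and 130.4 CPM in cMo. Every pMo and intMo library was above every cMo library for each of these 3 genes. All 3 rose in pMo against cMo, by 1.44 ± 0.41 for Parp14 (adjusted p = 0.0261), 1.03 ± 0.35 for Parp9 (0.0489) and 1.16 ± 0.31 for Dtx3l (0.0182). They also rose in intMo against cMo, by 1.36 ± 0.41 for Parp14 (adjusted p = 0.0415), 1.11 ± 0.35 for Parp9 (0.0466) and 1.04 ± 0.31 for Dtx3l (0.0375). Parp12 was not called (log2 0.92 ± 0.35 and 1.03 ± 0.35, adjusted p = 0.0751 and 0.0616).

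Each of these 6 calls was lost without some libraries. In pMo against cMo, Dtx3l was lost without pMo library 1 or 2 (adjusted p up to 0.0609) and Parp14 also without cMo library 2 (up to 0.0838), while Parp9 was lost without any library except cMo library 2, intMo library 0 and pMo library 0 (up to 0.139). In intMo against cMo, Parp9 and Dtx3l were lost without any of the libraries cMo 0, cMo 1, intMo 1, intMo 2, pMo 1 and pMo 2, and Parp14 without cMo 0, cMo 2, intMo 1, intMo 2, pMo 1 or pMo 2 (adjusted p up to 0.129, 0.107 and 0.115 for Parp9, Dtx3l and Parp14). Parp9 and Dtx3l share sequence on opposite strands at their common start, so with the strand setting unknown their reads cannot be fully told apart.

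Guanylate-binding proteins and some of the immunity-related GTPases coat the vacuoles in which microbes hide. Gbp2 (ENSMUSG00000028270.11, chromosome 3, 142620602 to 142638008, plus strand) was at 149.7, 205 and 199.6 CPM in pMo, 268, 293 and 242 CPM in intMo and 14.0, 50.9 and 66.2 CPM in cMo. Gbp5 (ENSMUSG00000105504.3, chromosome 3, 142493978 to 142522344, plus strand) was at 71.8, 83.8 and 90.2 CPM in pMo, 92.5, 103 and 104 CPM in intMo and 12.3, 31.2 and 31.8 CPM in cMo. For both genes every intMo library was above every pMo library and every pMo library above every cMo library. Gbp2 rose by 2.08 ± 0.46 in pMo (adjusted p = 0.00811) and by 2.61 ± 0.46 in intMo (0.00466), and Gbp5 by 1.71 ± 0.31 in pMo (0.00313) and 1.99 ± 0.31 in intMo (0.00229), each against cMo. These 4 calls held in every alternative tried, with adjusted p up to 0.0276 on leaving out 1 library. The fold changes in pMo against intMo were -0.53 ± 0.44 for Gbp2 and -0.29 ± 0.30 for Gbp5 and were not called (adjusted p = 0.603 and 0.703).

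Gbp3 (ENSMUSG00000028268.13, chromosome 3, 142560026 to 142573209, plus strand) was at 53.9, 71.7 and 83.2 CPM in pMo, 106, 125 and 104 CPM in intMo and 19.6, 45.6 and 50.5 CPM in cMo. Gbp7 (ENSMUSG00000040253.14, chromosome 3, 142530342 to 142550149, plus strand) was at 32.7, 54.5 and 68.1 CPM in pMo, 119, 151 and 138 CPM in intMo and 24.8, 63.7 and 73.5 CPM in cMo. Both were highest in every intMo library, and pMo and cMo overlapped for Gbp7 but not for Gbp3. In intMo against cMo both rose, by 1.53 ± 0.32 for Gbp3 (adjusted p = 0.00886) and 1.33 ± 0.39 for Gbp7 (0.0356). The call of Gbp3 held in every alternative tried, and that of Gbp7 was lost without cMo library 1, pMo library 1 or any intMo library (adjusted p up to 0.0838). In pMo against cMo the values were 0.85 ± 0.31 for Gbp3 (adjusted p = 0.0649) and -0.06 ± 0.38 for Gbp7 (0.918). In pMo against intMo, Gbp7 had -1.39 ± 0.39 (adjusted p = 0.0815), and with the number as a block it fell by 1.46 with these 2 subsets alone (log2, adjusted p = 0.000618) and by 1.48 with all 9 libraries (0.0149). Gbp3 and Gbp7 are neighbours of similar sequence, so the division of reads between them is uncertain.

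Igtp (ENSMUSG00000078853.7, chromosome 11, 58199556 to 58207591, plus strand), an immunity-related GTPase, was at 44.2, 81.6 and 81.8 CPM in pMo, 68.1, 110.3 and 98.4 CPM in intMo and 23.4, 38.2 and 45.9 CPM in cMo. The intMo libraries were above all cMo libraries, and pMo library 0 was just below the highest cMo library. It rose by 0.95 ± 0.31 in pMo (adjusted p = 0.0434) and by 1.36 ± 0.32 in intMo (0.0141), each against cMo. The call in intMo held in every alternative tried, and that in pMo was lost without cMo library 0 or 1, intMo library 1 or 2, or pMo library 1 or 2 (adjusted p up to 0.133). Irgm1 and Ifi47 were not called, with log2 fold changes of 1.10 and 0.54 in pMo against cMo, and of 1.24 and 1.07 in intMo against cMo. Igtp overlaps Irgm2 on the same strand. In pMo against intMo all 7 GTPases had a fold change below 0, with a median of -0.53, while the medians of the other 8 role groups lay between -0.34 and 0.00.

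Among the other members, Epsti1 (ENSMUSG00000022014.13, chromosome 14, 77904239 to 78002657, plus strand), a gene known for its induction where epithelial tumour cells meet stroma, was at 185, 316 and 324 CPM in pMo, 238, 349 and 301 CPM in intMo and 39.8, 109 and 144 CPM in cMo. Every pMo and intMo library was above every cMo library. Epsti1 rose by 1.49 ± 0.42 in pMo (adjusted p = 0.0242) and by 1.60 ± 0.42 in intMo (0.0249). The calls were lost without cMo library 1 and without libraries 1 or 2 of the subset set against cMo (adjusted p up to 0.0727). Trafd1 (ENSMUSG00000042726.13, chromosome 5, 121371725 to 121385632, minus strand), a brake on inflammatory signalling, was at 312, 381 and 376 CPM in pMo, 328, 377 and 379 CPM in intMo and 176, 244 and 254 CPM in cMo. It had the smallest range over libraries of the 47 genes, 1.11 on the log2 scale, and no overlap with cMo in either subset. Trafd1 rose by 0.66 ± 0.16 in pMo (adjusted p = 0.0131) and 0.69 ± 0.16 in intMo (0.0161), calls lost without pMo library 1 (0.0538) and without intMo library 2 (0.0558).

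Ifi44 (ENSMUSG00000028037.12, chromosome 3, 151730922 to 151749960, minus strand), a cytoplasmic protein of antiviral action, had the widest range of the 47, 8.30 on the log2 scale, and was at 3.00, 24.5 and 28.7 CPM in pMo, 9.76, 69.7 and 56.1 CPM in intMo and 0.144, 4.57 and 5.04 CPM in cMo. The lowest value rests on 4 counts in cMo library 0. Every intMo library was above every cMo library, while pMo library 0 lay below cMo libraries 1 and 2. It rose by 3.80 ± 1.17 in intMo against cMo (adjusted p = 0.0433), a call lost on leaving out any library other than pMo library 0 or intMo library 0 (adjusted p up to 0.0975), and 2.52 ± 1.12 (pMo against cMo, adjusted p = 0.115) was its value in pMo.

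Rtp4 (ENSMUSG00000033355.5, chromosome 16, 23520291 to 23614222, plus strand), a chaperone of membrane receptors, was at 32.9, 136 and 145 CPM in pMo, 49.0, 163 and 134 CPM in intMo and 3.67, 34.6 and 45.8 CPM in cMo, and its range of 5.44 on the log2 scale came after that of Ifi44. Rtp4 overlaps Masp1 on the opposite strand. Ifi35 (ENSMUSG00000010358.12, chromosome 11, 101448407 to 101458698, plus strand), a leucine zipper protein, was at 49.3, 88.4 and 84.4 CPM in pMo, 43.2, 88.1 and 72.9 CPM in intMo and 30.7, 41.9 and 53.3 CPM in cMo, with a range of 1.52. The pMo range overlapped cMo for both genes, and the intMo range overlapped cMo for Ifi35. Rtp4 had fold changes of 1.90 ± 0.85 (pMo against cMo, adjusted p = 0.119) and 2.04 ± 0.86 (intMo against cMo, adjusted p = 0.114), and Ifi35 of 0.82 ± 0.32 (pMo against cMo, adjusted p = 0.0765) and 0.70 ± 0.32 (intMo against cMo, adjusted p = 0.14). Trim30a, which restrains inflammatory signalling, Xaf1, which promotes cell death, and the nuclear body gene Sp100 were not called either, with log2 fold changes of 0.51 to 1.34 in pMo against cMo and of 0.42 to 1.30 in intMo against cMo.

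Within each subset, library 0 held less RNA of these genes than libraries 1 and 2. Library 0 was the lowest of the 3 libraries for 47 of 47 genes in pMo, 45 in intMo and 47 in cMo, while the shares of all tested genes were 43.4%, 41.0% and 38.0% in that order of subsets. The median difference of library 0 from the mean of libraries 1 and 2 was -1.24 in pMo, -1.03 in intMo and -1.69 in cMo on the log2 scale, beside medians of 0.00, 0.00 and 0.03 over all tested genes. In all 3 subsets at once, 24 of 47 genes were lower in library 0 by 1 log2 unit or more, against 0.903% of all tested genes. The 3 libraries 0 carry the same number and no other label, and no test of this difference was made.

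The difference was deepest in the IFIT, ISG15 and OAS groups and smaller in the transcription factors, the PARP group and the GTPases. The IFIT genes had median differences of -2.17 in pMo, -2.04 in intMo and -3.41 in cMo, and the OAS genes of -1.82, -1.76 and -2.19 in the same order of subsets. For the GTPases the medians were -0.88 in pMo, -0.28 in intMo and -1.35 in cMo, and for the transcription factors they were -0.70, -0.46 and -1.11. The largest single differences were those of Ifi44 (-3.11 in pMo, -2.67 in intMo and -4.46 in cMo). Trafd1 (-0.28 in pMo, -0.20 in intMo and -0.50 in cMo) and Gbp5 (-0.28 in pMo, -0.16 in intMo and -1.35 in cMo) had small ones in pMo and intMo, and Gbp2 alone was as high in intMo library 0 as in the others (0.01). Genes with a response element core in the promoter had medians of -1.19 in pMo, -1.02 in intMo and -1.69 in cMo (n = 19). Genes whose promoter lacked the core had -1.34, -1.05 and -1.36 (n = 18).

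**Figure D4:**
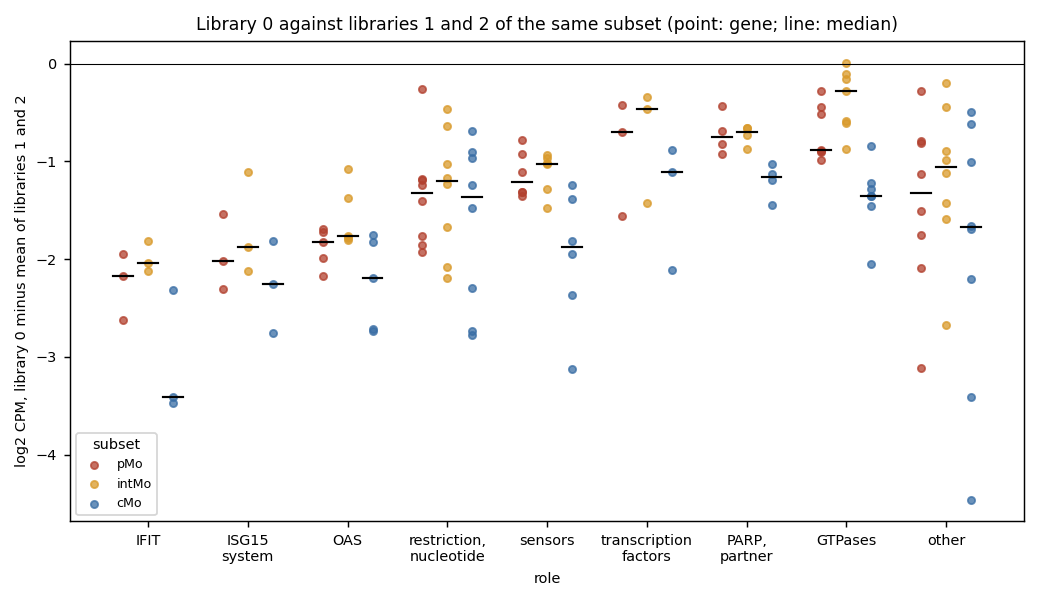
Difference in log2 CPM between library 0 and the mean of libraries 1 and 2 of the same subset for each of the 47 genes (points), by role, with the median of each role and subset (lines). All points but 1 lie below 0, and the medians of the IFIT, ISG15 and OAS groups lie lower than that of the GTPases in every subset.

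Summed over the 47 genes, the level was 5061, 9674 and 9868 CPM in pMo, 5436, 10203 and 9643 CPM in intMo and 1944, 4759 and 5069 CPM in cMo. The sum in library 0 of pMo or intMo was close to that in cMo libraries 1 and 2, and cMo library 0 was the lowest. Other lists also differed between library 0 and the others. The 10 granulocyte and progenitor genes summed to 547, 2459 and 2530 CPM in pMo, 453, 4053 and 3764 CPM in intMo and 12442, 2244 and 2527 CPM in cMo, so that library 0 was low in pMo and intMo and high in cMo, and none of these genes was at 0. The 10 immediate early and heat shock genes summed to 2720, 1148 and 1057 CPM in pMo, 3348, 1216 and 1328 CPM in intMo and 556, 592 and 627 CPM in cMo, with libraries 0 of pMo and intMo highest. Their part in the difference between libraries was not tested.

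The upstream pathway was examined with lists chosen with results of these data known. Interferon transcripts were scarce. Of 10 ligand genes, none had enough counts to be tested, and the summed level was 1.77, 0.21 and 0.524 CPM in pMo, 0, 0.467 and 0.199 CPM in intMo and 0, 0.0703 and 0.252 CPM in cMo. Ifna1, Ifna4, Ifna5, Ifne, Ifnl2 and Ifnl3 had 0 counts in all 9 libraries, and a count of 0 allows up to 0.1 to 0.163 CPM depending on the library. Ifnb1, the gene of interferon beta, had 0, 3 and 1 counts in pMo, 0 in each intMo library and 0, 2 and 7 in cMo. Ifng, the gene of interferon gamma, had 43, 1 and 10 counts in pMo, 0, 6 and 5 in intMo and 0 in each cMo library. Its counts were thus highest in pMo library 0, and their relation to the levels of the 47 genes was not tested. The 7 T and NK cell markers summed to 7.64, 4.59 and 4.24 CPM in pMo, 2.04, 5.47 and 4.04 CPM in intMo and 15.0, 1.62 and 1.80 CPM in cMo, and Cd3e had 2, 1 and 7 counts in pMo, 0, 8 and 8 in intMo and 0 in each cMo library.

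Receptor genes were expressed in all subsets. Ifnar1, a chain of the receptor for type I interferons, was at 258, 250.5 and 237 CPM in pMo, 211, 152 and 170.3 CPM in intMo and 121, 169.8 and 161 CPM in cMo. It rose in pMo against cMo by 0.72 ± 0.17 (edgeR adjusted p = 0.0101). Ifngr1, the ligand-binding chain for interferon gamma, was at 621, 609 and 598 CPM in pMo, 584, 505 and 445 CPM in intMo and 293, 384 and 475 CPM in cMo and rose by 0.67 ± 0.18 (0.0202). The pMo libraries were above all cMo libraries for both genes, and the call of Ifngr1 was lost without cMo library 1, pMo library 0 or pMo library 1 (adjusted p up to 0.0562). Il10rb, a chain shared with the interleukin 10 receptor, rose in pMo by 0.93 ± 0.18 (adjusted p = 0.00492) and in intMo by 0.91 ± 0.18 (0.00786). Ifnar2, Ifngr2 and Ifnlr1 were not called, so 3 of 6 receptor genes rose in pMo and 1 in intMo, and 0 fell. Among all tested genes 17.2% rose in pMo and 14.0% in intMo.

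Signal transducers carry the message from the receptors to the nucleus. Stat3, which also serves receptors of other cytokines, was at 543, 452 and 434 CPM in pMo, 330.2, 278 and 324 CPM in intMo and 259, 255 and 209 CPM in cMo, with every pMo library above every other. Stat3 rose in pMo against cMo (0.98 ± 0.14, adjusted p = 0.0012) and against intMo (0.62 ± 0.14, 0.0429), the call against intMo being lost without any library other than cMo library 0 or cMo library 2 (adjusted p up to 0.149). The kinase genes Jak1 and Jak2 rose in pMo against cMo by 0.45 ± 0.11 and 0.82 ± 0.16 (edgeR adjusted p = 0.0113 and 0.00411), and Tyk2 was not called (0.13 ± 0.12). The call of Jak1 was lost without pMo library 1 (adjusted p = 0.0501).

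Among 6 other IRF genes, 3 rose in pMo against cMo and 1 in intMo, beside 17.2% and 14.0% of all tested genes. Irf1, which responds to interferon gamma, was at 299, 248 and 246 CPM in pMo, 349, 296 and 271 CPM in intMo and 76.6, 105 and 127 CPM in cMo and rose by 1.36 ± 0.20 in pMo (edgeR adjusted p = 0.00107) and 1.57 ± 0.20 in intMo (0.000854). In pMo and intMo its library 0 was the highest of the subset, unlike the 47 genes. Of 9 measured genes that lead to interferon production, 5 rose and 1 fell in pMo against cMo, and 6 rose in intMo. The intMo calls of Mavs and Ticam1 were each lost in 8 of the fits without 1 library and with libraries 1 and 2 alone (edgeR adjusted p up to 0.149). That of Ikbke was lost in 4 of the fits without 1 library, and that of Tlr3 in 1. The endosomal RNA receptor gene Tlr7 was at 184, 293 and 297 CPM in pMo, 124, 191 and 173 CPM in intMo and 28.1, 81.5 and 89.2 CPM in cMo and rose by 1.96 ± 0.40 in pMo (0.00621) and 1.29 ± 0.40 in intMo (0.0432), the call in intMo being lost without cMo library 1 or libraries 1 or 2 of intMo or pMo (adjusted p up to 0.105). The kinase gene Ikbke rose by 1.87 ± 0.17 in pMo against cMo (adjusted p = 0.000113) and by 1.26 ± 0.17 against intMo (0.00397). The gene that fell was Tmem173, whose protein relays signals of cytosolic DNA, by 0.70 ± 0.14 in pMo against cMo (adjusted p = 0.00516).

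Of 8 brakes on the pathway, 3 rose and 1 fell in pMo against cMo, and 2 rose and 1 fell in intMo. Socs3, an inhibitor of STAT3 signalling, was at 315, 149 and 129.6 CPM in pMo, 187, 87.3 and 91.0 CPM in intMo and 74.9, 27.4 and 25.5 CPM in cMo, with library 0 the highest of each subset. It rose in pMo against cMo by 2.22 ± 0.53 (edgeR adjusted p = 0.0123). The phosphatase gene Ptpn1 rose in pMo by 0.94 ± 0.14 (adjusted p = 0.00113) and in intMo by 0.66 ± 0.14 (0.00864). Socs1, an inhibitor of the JAK kinases, rose in intMo by 1.17 ± 0.37 (0.0456) at 6.70, 3.90 and 5.60 CPM in intMo against 1.26, 2.85 and 3.06 CPM in cMo, a call lost without any library other than intMo library 1 and with libraries 1 and 2 alone (adjusted p up to 0.126). Nlrc3, a brake on DNA sensing, fell in both, the call in intMo being lost without cMo library 1 or any intMo library (adjusted p up to 0.0679). The counts of receptor, IRF, inducing and brake genes stand beside those of all tested genes. Of these, 17.2% rose and 15.9% fell in pMo against cMo, and 14.0% rose and 10.4% fell in intMo against cMo.

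**Figure D5:**
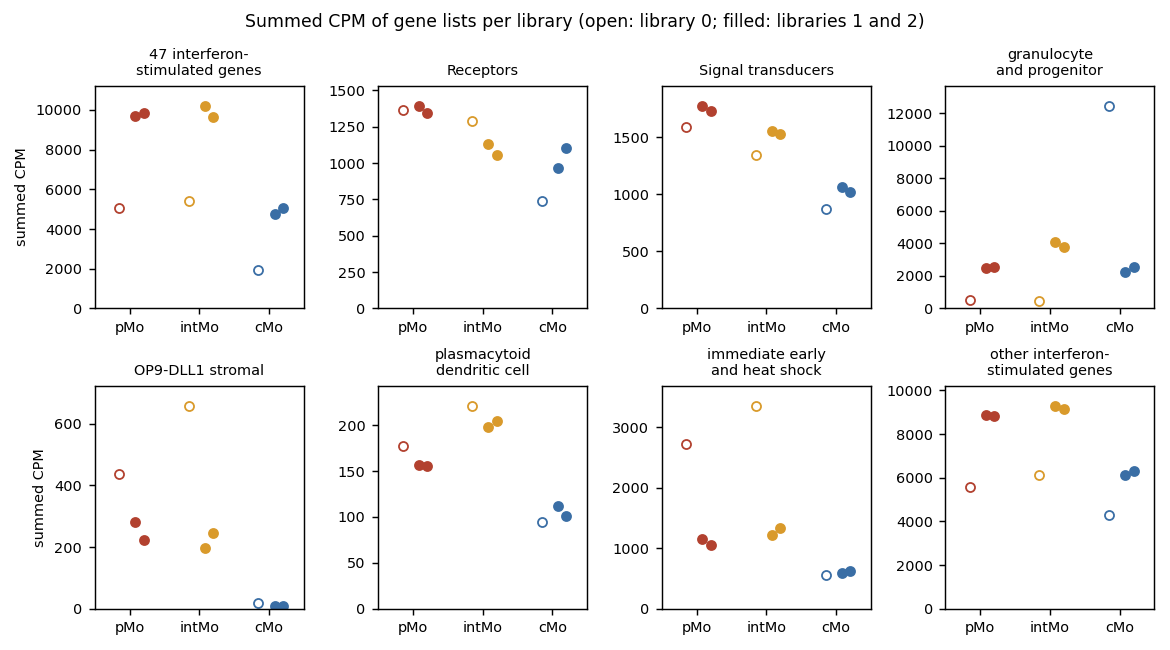
Summed CPM of 8 gene lists in each library (open points are library 0, filled points libraries 1 and 2). The sum of the 47 genes is lower in library 0 of every subset, whereas receptors and transducers differ less between libraries, and the stromal list is highest in libraries 0 of pMo and intMo.

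A further list of 44 interferon-stimulated genes, of which 43 were tested, gave 12 that rose (27.9%) and 0 that fell in pMo against cMo, beside 17.2% and 15.9% of all tested genes, and the same counts in intMo against cMo, beside 14.0% and 10.4%. With libraries 1 and 2 alone, 30 rose (69.8%) and 2 fell (4.65%) in pMo against cMo, and 32 rose (74.4%) and 0 fell in intMo against cMo. Of 14179 genes tested in that fit, 19.7% rose and 2552 fell in pMo against cMo, and 15.8% rose and 1694 fell in intMo against cMo. The largest fold change of the list was that of Cd274 in pMo and that of Gbp8 in intMo. Cd274, the checkpoint ligand PD-L1, was at 266, 277 and 289 CPM in pMo, 141, 109.8 and 113 CPM in intMo and 6.59, 11.6 and 12.9 CPM in cMo. The subsets did not overlap, with pMo highest. Cd274 rose by 4.74 ± 0.26 in pMo (edgeR adjusted p = 6.5e-06) and 3.55 ± 0.25 in intMo (4.31e-05), each against cMo, and by 1.19 ± 0.22 in pMo against intMo (0.0177). Gbp8, another guanylate-binding protein, was at 144, 137 and 151 CPM in pMo, 274, 239 and 241 CPM in intMo and 4.14, 21.3 and 23.1 CPM in cMo, and every intMo library lay above every pMo library. Gbp8 rose by 3.15 ± 0.51 in pMo and 3.96 ± 0.53 in intMo (0.002 and 0.00122). Nlrc5, the activator of MHC class I genes, rose by 1.22 ± 0.12 in pMo and 0.97 ± 0.12 in intMo (0.000182 and 0.000885). In pMo against intMo, Pml, a nuclear body gene, fell by 0.97 ± 0.20 (0.0252). The calls in pMo against intMo were lost without libraries 1 or 2 of pMo or intMo for Cd274 (adjusted p up to 0.0805), and without intMo library 2 or any pMo library for Pml (up to 0.11). In library 0 this list was lower by medians of -0.76 in pMo, -0.62 in intMo and -1.41 in cMo, and Ifitm1 differed the other way (1.16, 0.89 and 1.86).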

How the data were processed

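The deposited table held estimated counts per Ensembl gene from kallisto 0.46.1 on mm10, per the submitters' processing notes, for RNA taken up in RNAzol and turned into libraries by a stranded mRNA kit (NEBNext Ultra II), per the labels' protocols. The sources used here do not give the strand setting of the authors' counting. Estimated counts were rounded to whole numbers (25.6% to 27.5% of the deposited values per library were not whole), and 46005 of 46517 IDs matched a GENCODE M21 symbol on GRCm38. Genes were filtered with filterByExpr, which left 14059. All 9 libraries were scaled by TMM and fitted together with subset as the only factor by edgeR 4.0.16 (quasi-likelihood F test, R 4.3.3), which was tested on simulated data. P-values were adjusted by Benjamini-Hochberg over all tested genes at 0.05. Totals of 18455008 to 29985563 counts set the precision, and a gene at 0 counts has an upper limit of 3 counts, 0.1 to 0.163 CPM, which covers counting error only, since reads carry no molecular identifiers.

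The 47 members and the other lists were chosen with earlier results of these data known. Values in every library are given for the member of each role with the highest level per kilobase of exon, for members called in a comparison (up to 12 per comparison by adjusted p) and for the 3 with the widest and the 3 with the narrowest range. Libraries numbered alike in pMo and intMo correlated in their deviations (r = 0.588, 0.3 and 0.274 for numbers 0, 1 and 2, across genes), all above 0.1, the limit set for a block. Libraries 1 and 2 correlated as well across numbers (0.403 and 0.279), so this rests on library 0, and the labels do not say what the number stands for. Alternatives were DESeq2 1.42.0, other scalings and filters, 2 subsets alone, a replicate block, libraries 1 and 2 alone, and each library left out. Promoters came from RefSeq. Some genes of the lists are not reported here.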

Additional observations from a re-analysis of the deposited data

How the results depend on the processing

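Of 25 calls among the 55 fold changes followed for single genes (0.25 or more on the log2 scale), 7 held under every alternative, 18 were lost on leaving out 1 library, and no fold change reversed. Of 61 further calls (Bst2 and genes of the pathway lists, followed after seeing the data), 39 held throughout, 22 were lost without 1 library and 0 reversed. All 14 smaller fold changes of the named members took the other sign in some alternative, and none was called. DESeq2 called 20 of the 47 genes in pMo against cMo, 22 in intMo against cMo, 1 in pMo against intMo and 21 in any subset, against 12, 14, 0 and 12 by edgeR. With libraries 1 and 2 alone the counts were 43, 46, 9 and 46 in the same order. With a replicate block in the fit of all 9 libraries they were 43, 43, 1 and 45, where same-number correlations of cMo with the other subsets over all tested genes were -0.143 to 0.23, while the 47 genes were low in library 0 of cMo too, and the block with pMo and intMo alone, chosen after seeing the data, gave 14. Fits of 2 subsets alone gave 1 in pMo against intMo and 7 in intMo against cMo, and no filter on low counts gave 8 there. Without 1 library in turn the counts ran from 4 to 17 in pMo against cMo, 0 to 3 in pMo against intMo, 4 to 17 in intMo against cMo and 5 to 16 in any subset. The median log2 fold changes ran from 0.74 to 1.38, from -0.40 to 0.22 and from 0.83 to 1.54 in pMo against cMo, pMo against intMo and intMo against cMo. Over all genes, those called higher in pMo against cMo were 2420 with edgeR, 2660 with DESeq2, 2797 with libraries 1 and 2 alone and 2593 with the block of all 9 libraries. Those called higher in intMo against cMo were 1966, 2277, 2242 and 2090 in that order. All members called in these comparisons were higher. In any subset, edgeR called 33.0% of all tested genes, and no such share is given for the alternatives. Calls over all genes in pMo against intMo were 701 with edgeR, 1412 with DESeq2 and 2424 with libraries 1 and 2 alone. They were 836 with the block of all 9 libraries, 2589 with the block of 2 subsets and 221 to 1107 without 1 library. Those in intMo against cMo were 3433, and 2213 with 2 subsets alone. Except where an alternative has fewer libraries or genes by construction, the cause was not tested. Other scalings moved no count by over 1.5 times. Levels near 4 counts, as for Ifi44 in cMo library 0, are limited by depth.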
